A study of Mus musculus with 14 samples.

Results

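The steady-state transcript profile of wild-type mouse astrocytes in culture was described from 3 samples, wild-type replicates 3, 4 and 6, out of 14 samples in the series. The other 11 samples, which include wild-type replicates 1, 2 and 5, were not used. Replicates 1, 2 and 5 were set aside because earlier work on the same table had found their columns misplaced or of unclear scale. Genes with 1 symbol and a value in all 3 samples were ranked by their mean log2 signal, and 9556 of the 13661 genes on the array met this condition. A gene with several probes took the mean of those measured in all 3 samples. The percentile of a gene is its place among the 9556, with 100 at the brightest end.

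The series set out to compare astrocytes with and without connexin43, the gap junction protein encoded by Gja1, on spotted arrays of long oligonucleotides. The wild-type cultures carried no allele of interest and received no treatment, and the strain and sex of the mice are not given. Brains were taken from newborn mice and each littermate was cultured on its own in medium with serum. Confluent primary cells were passaged 1 time onto coverslips before RNA was taken, so the RNA comes from mixed primary glial cultures with no sort. The titles call the cells cortical, whereas the protocol speaks of tissue from the whole brain. From each sample, 20 ug of total RNA was labelled, with Cy3 for replicate 3 and with Cy5 for replicates 4 and 6. Nothing states which culture a sample came from, so the spread between the 3 samples may be technical in part.

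Astrocytes are the star-shaped glia that take up glutamate and potassium, supply neurons with lactate and lipids, and form a network joined by gap junctions. In culture with serum they divide and keep many features of immature glia. Such cultures are known to carry microglia, cells of the oligodendrocyte lineage and meningeal fibroblasts alongside astrocytes. Genes of protein synthesis, respiration and the cytoskeleton are transcribed at high levels in most growing cells.

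Each value is the log2 ratio of a spot's signal to the median signal of its print block, a run of 700 probes, and there were 48 blocks. The median is taken over those spots of the block that have a value. A value of 0 is therefore the median of the measured spots of a block, not an absence of transcript. Measured spots made up 79.1%, 61.8% and 64.3% of probes in replicates 3, 4 and 6, so 0 need not mark the same point in each. The signal of a spot also depends on how well its own probe binds, so the order of genes is an order of probe signals and not of transcript numbers. This limit was large where it could be seen. Of 1575 ranked genes with several probes, 773 had probes more than 2 log2 units apart, and the median distance was 1.96. Among the 1165 genes with 2 probes, the signals of both correlated at r = 0.38 across genes, which are not independent replicates. The widest cases were Myo15 at 10.6, Ass1 at 8.77, Map4 at 8.43, Rps21 at 8.35 and Prss23 at 8.30 log2 units between probes. Places of large gene groups rest on many probes. Places of single genes and of small groups, some with only 4 ranked genes, rest on few.

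The 3 samples ordered the genes alike. Across the 9556 genes, which are not independent replicates, Pearson's r was 0.940 between replicates 3 and 4, 0.915 between 4 and 6, and 0.874 between 3 and 6. Mean values ran from -4.00 to 7.45 with a median of 0.88. The top decile (10% of genes) began at 3.98 and the bottom decile ended at -1.89, which is a 58.7-fold difference in signal. The median SD between samples was 0.61, and 7803 genes (81.7%) had an SD under 1. Of the 956 genes in the top decile, 629 (65.8%) stood in the top decile of every sample and 955 were never below the median in any sample. The bottom decile was less stable, with 374 of 956 genes (39.1%) in the lowest decile of every sample, but all 956 stayed under the median in each. The deciles were set by the mean of these same 3 samples, so these counts are not an independent check. The counts against the median in particular were nearly fixed in advance. The low end was shallower in replicate 3, where the median of the bottom decile was -1.76 against -2.77 and -2.96 in replicates 4 and 6, while the medians of the top decile were 5.03, 4.82 and 4.82.

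**Figure D1:**
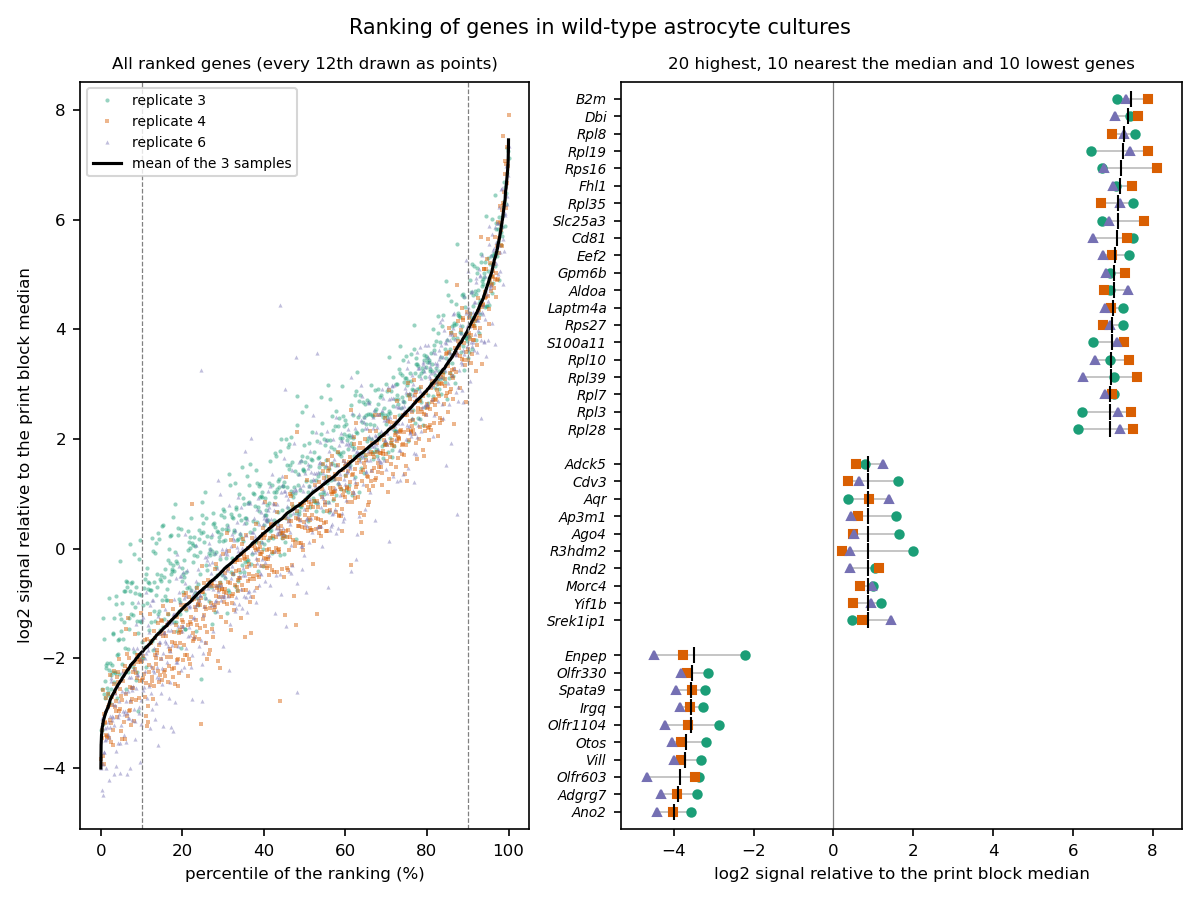
Left, log2 signal relative to the print block median of every 12th ranked gene in each sample (points) and the mean of the 3 samples for all genes (line) against the percentile of the ranking, with dashed lines at 10 and 90. Right, the 3 sample values (points) and their mean (tick) for the 20 highest genes, the 10 nearest the median and the 10 lowest; the 3 sets do not overlap, and at the low end replicate 3 lies above the others.

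The brightest genes included many of protein synthesis. B2m, the invariant light chain of class I histocompatibility molecules, ranked first at 7.12, 7.90 and 7.34 in replicates 3, 4 and 6 (mean 7.45 ± 0.40 SD, n = 3). Dbi, an acyl-CoA binding protein that is also the precursor of endozepine peptides in glia, came next at 7.44, 7.63 and 7.05. The ribosomal protein genes Rpl8, Rpl19 and Rps16 followed with means of 7.27, 7.26 and 7.21. In all, 10 of the 20 brightest genes encode ribosomal proteins. When a value in 2 samples was enough, 5 of the 20 brightest did, because bright genes without a value in replicate 6 came in. The other 10 were B2m, Dbi, Fhl1, Slc25a3, Cd81, Eef2, Gpm6b, Aldoa, Laptm4a and S100a11. Fhl1 encodes a LIM domain protein of the cytoskeleton, and had a mean of 7.20 ± 0.26 (SD, n = 3). Slc25a3, the phosphate carrier of mitochondria, read 6.74, 7.78 and 6.90. Gpm6b, a membrane proteolipid of neurons and glia, read 6.94, 7.31 and 6.83. Aldoa is the aldolase of glycolysis and Eef2 the elongation factor that moves the ribosome along the messenger. Laptm4a is a membrane protein of lysosomes, Cd81 a tetraspanin of the cell surface and S100a11 a calcium-binding protein. Means of these 20 genes ran only from 6.94 to 7.45, a range smaller than the SD of several of them, so the order within the 20 carries little weight.

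At the other end, the lowest gene was Ano2, a calcium-activated chloride channel of olfactory and photoreceptor cells, at -3.58, -4.01 and -4.42. Adgrg7, an orphan adhesion receptor, read -3.42, -3.93 and -4.33. The odorant receptor genes Olfr603, Olfr1104 and Olfr330 stood among the 10 lowest with means of -3.84, -3.58 and -3.54. The remaining members were Vill, a relative of the actin-binding protein villin, Otos, a secreted protein of the inner ear, Spata9, a gene of the testis, Enpep, an aminopeptidase that cleaves angiotensin, and Irgq. In all 10 the highest of the 3 values was that of replicate 3 and the lowest that of replicate 6.

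The 10 genes nearest the median all had a mean of 0.88. Ago4 is an Argonaute protein of the small RNA pathway and read 1.64, 0.49 and 0.51. Ap3m1, a subunit of the AP-3 coat of endosomes, read 1.58, 0.61 and 0.45. Aqr is a helicase of the spliceosome and read 0.36, 0.89 and 1.38. R3hdm2, Rnd2, Morc4, Cdv3, Yif1b, Adck5 and Srek1ip1 completed this set. By percentile, places in the middle were the least firm. A middle gene (45 to 55) spanned a median of 15.4 points between samples, against 3.73 for the top decile and 7.84 for the bottom decile. The log2 values themselves varied more at the low end. Their median SD was 0.74 and 0.87 in deciles 1 and 2 from the bottom, against 0.63 and 0.60 in deciles 5 and 6.

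Promoter sequences are shown for genes of both ends, because CG content near the start site differed between the upper and lower part of the ranking. Sequences come from RefSeq, build GRCm38.p6, as 300 bases made of 250 before and 50 after each gene's start. At least 1 such window was found for 7764 of the 9556 ranked genes (81.2%), and exactly 1 for 6182. Below are the last 100 bases before the start, 5′ to 3′ on the strand of the gene, with each CG pair in capitals. They were chosen as members of the 5 highest or 3 lowest genes that had a single window.
B2m, chr2:122147587-122147686, plus strand: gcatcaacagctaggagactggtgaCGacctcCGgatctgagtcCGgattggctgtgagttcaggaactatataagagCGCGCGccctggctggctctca
Rps16, chr7:28350589-28350688, plus strand: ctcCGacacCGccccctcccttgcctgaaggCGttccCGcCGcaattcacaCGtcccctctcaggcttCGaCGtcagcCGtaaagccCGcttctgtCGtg
Adgrg7, chr16:56795859-56795958, minus strand: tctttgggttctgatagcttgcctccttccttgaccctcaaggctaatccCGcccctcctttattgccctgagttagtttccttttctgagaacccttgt
Olfr603, chr7:103384001-103384100, minus strand: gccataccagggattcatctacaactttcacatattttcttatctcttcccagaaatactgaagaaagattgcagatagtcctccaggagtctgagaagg

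The stretch shown holds 6 CG pairs for B2m and 11 for Rps16, against 1 for Adgrg7 and 0 for Olfr603. Over the whole 300 bases these genes hold 14, 23, 3 and 0. Where a gene has several windows, their mean was taken. Over 300 bases the median CG count was 17 (quartiles 7 and 25) for ranked genes below the median of the ranking. It was 21 (quartiles 15 and 28) for those above it, so the ranges overlapped widely and B2m lay under both medians. The median count was 7 over all 27025 genes of the sequence table, 22.7 for ribosomal protein genes, 19.5 for oxidative phosphorylation genes and 1 for the chemosensory receptors. The letters CCGGAAG, the core of an ETS factor site, were present on either strand in 13.2% of windows below the median, 20.5% above it, 41.2% for ribosomal protein genes and 9.07% over the table. GGGCGG, the GC box, was present in 54.8% below the median, 66.1% above it and 35.6% over the table. It was present in 62.3% for ribosomal protein genes and in only 40.5% for oxidative phosphorylation genes, although these rank high. CCGGAAG and GGGCGG each contain a CG pair, so their shares are not independent of the CG count. TATAAA, the TATA box, went the other way, with 10.8% below the median, 7.41% above it, 42.3% for the chemosensory receptors and 14.2% over the table. A match of letters is a description of the window and not evidence of a bound site. The same check was void for the lowest decile alone (79.6% with a window) and for the next lowest alone (78.3%). It was also void for genes without a place and for the astrocyte and microglia markers. In each of these sets under 80% of genes have a window.

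Among cell functions, ribosomal protein genes had the highest median place. By construction 10% of ranked genes lie in the top decile, 10% in the bottom decile and 50% above the median, and being ranked at all was met by 70% of genes on the array. Of 72 cytosolic ribosomal protein genes on the array, 67 were ranked, 65 of them above the median and 55 in the top decile. Their median percentile was 98.9, with 98.4, 98.9 and 98.6 in replicates 3, 4 and 6. Rps15a at percentile 48.3 and Rps20 at 48.9 were the lowest, with values of 1.86, 0.00 and 0.48 for Rps15a. Ribosomal protein genes have many processed copies in the genome, and a probe can bind transcripts of a close relative. Of 28 translation factor genes, 24 were ranked and 14 stood in the top decile, with a median percentile of 92.5. Eef2 led at 7.41, 6.97 and 6.77, then Eef1b2, an exchange factor of elongation, with a mean of 6.69 and Eif3h, an initiation factor subunit, with 6.43. The cap-binding protein gene Eif4e stood lower, at percentile 55.3.

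Genes of respiration were close behind. Of 72 oxidative phosphorylation genes, 68 were ranked and 57 lay in the top decile, with a median percentile of 96.4. Uqcrh, a subunit of complex III, read 6.90, 7.05 and 6.66. Ndufc2 of complex I had a mean of 6.86 ± 0.62 and Cox7c of complex IV 6.78 ± 0.58 (SD, n = 3). Only Ndufab1 and Ndufa9 lay below the median, and Ndufa9 read -0.45 and -0.86 in replicates 3 and 4 but 3.68 in replicate 6. The Ndufa9 probe sits at the last place in a run of 28 consecutive probes. There replicate 6 correlated at 0.841 with the mean of the others, the lowest of the 28 places. Of 18 glycolytic genes, 17 were ranked and 8 lay in the top decile (median percentile 86.6). Gapdh, measured by 23 probes in all 3 samples, read 5.92, 6.46 and 5.35, and its probes ran from 4.62 to 7.45. Ldhb, the lactate dehydrogenase subunit of oxidative tissues, read 6.25, 6.27 and 5.19. The neuronal enolase Eno2 stood at percentile 45.1 and the lactate exporter gene Slc16a3 at 39.7.

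Protein folding and turnover also ranked high. All 28 chaperone genes were ranked and all were above the median, 17 of them in the top decile. Hsp90aa1 read 6.63, 7.30 and 6.61, the peptidyl-prolyl isomerase gene Ppia had a mean of 6.74 and the constitutive heat shock protein gene Hspa8 6.71. The lowest were Cct4 and Hspa5, the chaperone of the endoplasmic reticulum. Both owed their place to 1 sample each, since Hspa5 read 1.64 and 0.86 in replicates 3 and 4 and 5.24 in replicate 6, and Cct4 read 0.98, 0.14 and 5.09. Their probes sit in print blocks where replicate 6 correlated with the mean of the others at 0.812 (Hspa5) and 0.879 (Cct4). The median over blocks was 0.932. All 26 ranked proteasome genes (of 29) and all 25 ranked lysosomal genes (of 26) were above the median, with 12 of each in the top decile. Their median percentiles were 89.8 and 89.9. Psma6, a subunit of the core particle, had a mean of 5.98. Lamp1, the main glycoprotein of the lysosomal membrane, read 6.04, 7.40 and 7.11, and the tetraspanin gene Cd63 had a mean of 6.53.

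Of 42 cytoskeletal genes, 36 were ranked and 25 lay in the top decile, at a median percentile of 94.9. The tubulin gene Tuba1a read 6.16, 7.19 and 6.75. Actg1, which encodes gamma-actin, read 5.30, 7.66 and 7.01, and the myosin light chain gene Myl6 had a mean of 6.53 ± 0.33 (SD, n = 3). Actb, which encodes the closely related beta-actin, was the lowest of the list at -1.58, -1.34 and -2.05 (percentile 12.8). Its place rested on 10 of 17 probes, whose means ran from -2.69 to -0.18, so that each of these 10 had a mean below the block median. The Actg1 probe measured in all 3 samples had a mean of 6.66, and another measured in 2 samples had 7.08. What the Actb probes bind was not tested, and the place of Actb is not a measure of beta-actin in these cells.

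Metal and oxidant handling genes held 11 top-decile members among 26 ranked (of 29; median percentile 88.6). Gstm1, a glutathione transferase, read 6.17, 7.26 and 7.15, the peroxiredoxin gene Prdx2 had a mean of 6.38, and Mt3, the metallothionein of brain, read 5.13, 6.07 and 5.70. The iron exporter gene Slc40a1 stood at percentile 16.1. Lipid synthesis was spread more widely, with 7 of 27 ranked genes in the top decile and a median percentile of 72.3. Scd2, the stearoyl-CoA desaturase of brain, read 6.79, 6.82 and 6.02. The fatty acid elongase gene Elovl5 and the squalene epoxidase gene Sqle had means of 5.99 and 5.33, whereas Acaca, which encodes acetyl-CoA carboxylase, lay at percentile 11.9.

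Of 49 cell cycle and DNA replication genes, 46 were ranked, 35 of them above the median and 5 in the top decile (median percentile 62.7). Ccnd1, the D-type cyclin that carries growth signals into the cycle, read 5.06, 6.11 and 6.16, and Pcna, the sliding clamp of replication, read 5.68, 5.50 and 4.39. The replicative helicase subunits fell on both sides, since Mcm7 had a mean of 4.27 and Mcm2 and Mcm3 lay at percentiles 14.8 and 19.4. Neurotransmitter receptors were the lowest of the function lists. Only 18 of 35 were ranked, none was in the top decile, and their median percentile was 32.3. The highest were Ednrb, the endothelin B receptor of astrocytes, at 3.79, 3.46 and 3.14, and the AMPA receptor subunit gene Gria2 at 3.24, 3.04 and 3.31, while the nicotinic subunit gene Chrnb2 read -2.91, -3.10 and -2.17.

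Extracellular matrix and secreted modulators had 41 of 51 genes ranked, 12 in the top decile and 2 in the bottom decile. Serpinf1, an anti-angiogenic secreted factor, read 5.89, 7.17 and 7.38, and Fn1, which encodes fibronectin, read 5.89, 6.02 and 6.74. The laminin chain genes Lama4 and Lamb1 were the lowest, at percentiles 1.5 and 3.0. The median percentile of this list was 76.8, but it was 82.1 and 84.7 in replicates 3 and 4 and 59.4 in replicate 6.

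**Figure D2:**
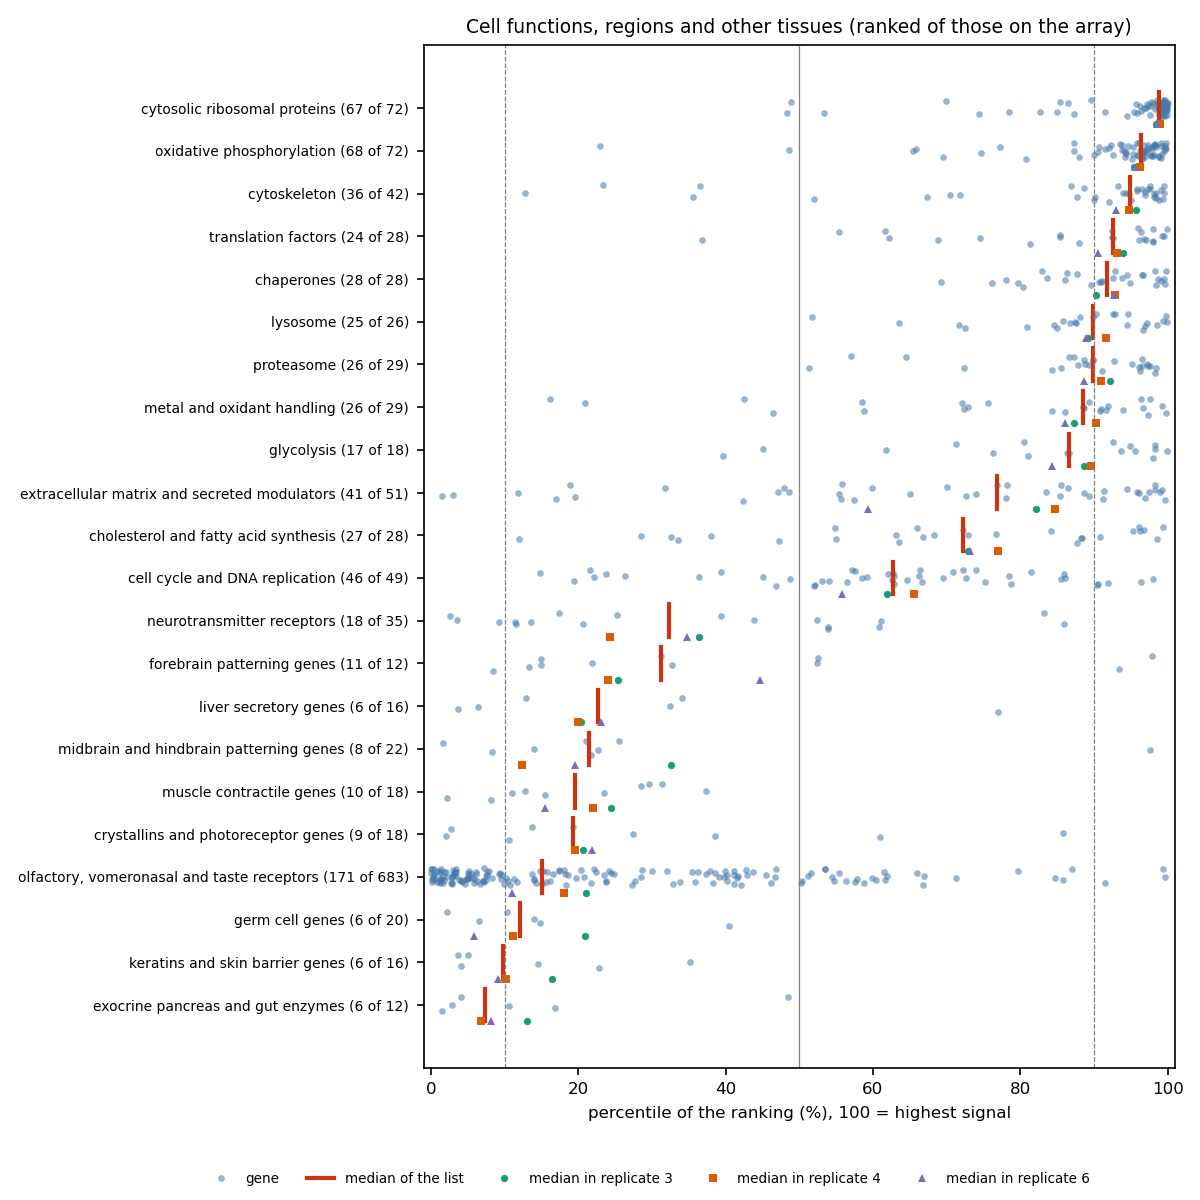
Percentile of each ranked gene (blue points) in the lists of cell functions, brain region patterning genes and genes of other tissues, with the list median (red bar) and the list median in each sample (green circle, replicate 3; orange square, replicate 4; purple triangle, replicate 6). Numbers after each name are ranked genes of those on the array; the medians fall from 98.9 for ribosomal proteins to 7.37 for enzymes of exocrine pancreas and gut.

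Genes of other tissues had low medians, and many of them had no place at all. Of 683 olfactory, vomeronasal and taste receptor genes on the array, 171 were ranked and 75 of the 171 were in the bottom decile (median percentile 15.1). The median percentile was 7.37 for enzymes of exocrine pancreas and gut (6 of 12 ranked), 9.82 for keratins and skin barrier genes (6 of 16), 12.1 for germ cell genes (6 of 20), 19.3 for crystallins and photoreceptor genes (9 of 18), 19.5 for muscle contractile genes (10 of 18) and 22.7 for liver secretory genes (6 of 16). The small lists have no firm order. Without replicate 4 the median was 15.6 for pancreas and gut enzymes and 15.0 for keratins, and without replicate 6 it was 18.4 for keratins and 10.01 for liver genes. All these medians cover only genes with a value in all 3 samples. Some single probes were bright. Olfr31 read 6.77, 7.03 and 6.36 and Olfr143 read 6.44, 7.63 and 5.66, each through 1 probe, and what these probes bind was not tested. Gnat2, the transducin of cone photoreceptors, read 4.51, 3.93 and 1.92. Cryba1, a lens crystallin, read 7.41 and 7.44 in replicates 3 and 4 and had no value in replicate 6, so it was not ranked.

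Astrocyte markers were mostly in the upper part of the ranking, with clear exceptions. In RNA from a whole culture, fewer cells of a type and less RNA per cell cannot be told apart. Of 34 markers on the array, 26 were ranked, 18 of them above the median, 9 in the top decile and 2 in the bottom decile. The median percentile was 76.4, with 80.2, 78.5 and 70.7 in replicates 3, 4 and 6. Without the 11 print blocks in which replicate 6 correlated under 0.9 with the mean of the others, 18 markers were left and their median percentile was 57.6. Clu, the secreted chaperone clusterin, was the highest at 6.94, 7.30 and 5.33. Fabp7, the fatty acid binding protein of immature astrocytes and radial glia, read 5.56, 6.92 and 6.52. Gja1, the gap junction gene that the series is about, read 6.08, 7.53 and 4.82 (percentile 98.7), so it was among the brightest 121 genes of the mean ranking although replicates 4 and 6 lay far apart. The remaining members of the top decile were Mlc1, a membrane protein of astrocyte endfeet, Mt3, the acyl-CoA synthetase gene Acsbg1, the bicarbonate transporter gene Slc4a4, and Id4 and Id3, inhibitors of basic helix-loop-helix factors.

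Several defining markers were low or had no value. Gfap, the intermediate filament by which astrocytes are usually identified, and Slc1a3, the glutamate transporter GLAST, each had 1 probe and no value in any of the 3 samples. Slc1a2, the glutamate transporter GLT-1, read -1.29, -2.57 and -1.88 (percentile 9.8), Atp1b2, the sodium pump subunit of astrocytes, lay at 12.9, S100b at 34.1 and the urea transporter gene Slc14a1 at 3.4. Aqp4, the water channel of astrocyte endfeet, read 3.21, 2.95 and 2.15 as the mean of 3 probes whose means ran from -2.08 to 5.93. Glul, which encodes glutamine synthetase, lay at percentile 86.2 with 2 probes at 0.26 and 6.73. Aldh1l1 and Aldoc, broad markers of astrocytes, lay at percentiles 74.2 and 71.3.

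Markers of radial glia and neural progenitors had a similar median place. Of 14, 11 were ranked and 5 were in the top decile. The median percentile was 74.6, with 63.4, 74.5 and 83.3 in replicates 3, 4 and 6. The highest member, Fabp7, is also in the astrocyte list. Nes, the intermediate filament nestin, read 5.20, 6.03 and 4.90. Notch1, a receptor that keeps progenitors undifferentiated, read 4.78, 5.89 and 4.42, and the progenitor transcription factor gene Sox2 read 3.89, 3.48 and 4.68. Pax6 lay at percentile 52.4, the Notch target gene Hes1 at 40.8 and the RNA-binding protein gene Msi1 at 2.9.

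Microglia and macrophage markers also stood in the upper part of the ranking. Of 28, 25 were ranked, 20 above the median, 8 in the top decile and none in the bottom decile, and the median percentile was 79.1 (81.8, 80.9 and 74.9 in replicates 3, 4 and 6). The genes of complement C1q, which brain tissue makes mainly in microglia, were the highest. C1qa read 6.14, 6.66 and 6.05, C1qb read 5.66, 7.29 and 6.10, and C1qc read 5.76, 5.81 and 5.92. The adaptor gene Tyrobp lay at percentile 97.1 and Fcer1g, a chain of immunoglobulin receptors, at 95.6. Aif1, the actin-bundling protein known as Iba1, read 4.66, 3.96 and 2.55. Tmem119 and Trem2 lay at percentiles 62.3 and 62.9, both with their lowest value in replicate 6, where Tmem119 read -0.53 against 3.38 and 2.06. Ptprc lay at percentile 48.7. Itgam, the integrin CD11b, Adgre1, the antigen F4/80, and the chemokine gene Ccl4 were low, at percentiles 18.2, 21.6 and 17.8. The share of microglia in the cultures was not measured.

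In the oligodendrocyte lineage the markers split. Of 18 markers, 11 were ranked, with a median percentile of 36.5. Olig1, a transcription factor of the lineage, read 7.39, 7.82 and 5.50 and ranked 22nd of all genes. Olig2 read 4.75, 4.35 and 3.99 (percentile 92.6), and Cnp, an enzyme of myelin, lay at percentile 83.8. Sox10, which marks the lineage throughout, read 0.02, -0.51 and -0.42 (31.4), and the precursor markers Pdgfra and Cspg4 lay at 34.3 and 14.8. The myelin gene Mag stood at percentile 9.1, and the myelin genes Mbp and Mog had a value in 1 sample each and were not ranked.

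Fibroblast and meninges markers lay on both sides of the median, and many differed between samples. Of 26, 21 were ranked, 13 above the median and 5 in the top decile, with a median percentile of 55.7 (60.9, 63.7 and 46.9). The lowest were Postn at percentile 11.8 and Fbln1 at 19.5. Col1a1, which read 2.99, 1.41 and -0.70, and Col5a1 lay at percentiles 55.7 and 55.3. Col5a2, a fibrillar collagen chain, read 4.90, 4.05 and 6.18, the collagen crosslinking enzyme gene Lox read 5.17, 4.05 and 5.14, and Ogn, a small proteoglycan of connective tissue, read 4.85, 5.05 and 4.04. Other matrix genes were bright in replicates 3 and 4 and dim in replicate 6. Mgp, an inhibitor of calcification, read 5.55, 4.81 and 0.63, the proteoglycan gene Dcn read 4.49, 3.12 and -0.35, Col3a1 read 5.39, 3.23 and 1.63, and Col1a2 read 4.40, 4.43 and 1.46. Over the probes of the same print block, the correlation of replicate 6 with replicates 3 and 4 averaged was 0.953 for Dcn, 0.9002 for Mgp and 0.908 for Col3a1, against a median of 0.932 over all blocks. Ttr, the thyroid hormone carrier made by the choroid plexus, was likewise bright in replicates 3 and 4 only, at 4.64, 4.65 and -1.35. Kl and Clic6, also of the choroid plexus list, lay at percentiles 1.7 and 6.1. The part of meninges or choroid plexus tissue in these values was not tested.

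Marker lists of the remaining cell types had medians below the middle of the ranking. Of 30 neuron markers, 16 were ranked, 2 above the median and none in the top decile (median percentile 26.1). Stmn2, a microtubule regulator of growing axons, was the highest at 2.26, 2.78 and 4.30. Tubb3 lay at percentile 56.6 and Map2 at 28.5, and Snap25, a protein of synaptic vesicle fusion, read -0.90, -3.46 and -4.22. The median percentile was 45.2 for mural and smooth muscle cells (7 of 17 ranked), 32.5 for choroid plexus (10 of 11), 30.2 for endothelium (9 of 19), 29.6 for ependyma (10 of 13), 13.5 for erythroid cells (4 of 9) and 10.7 for lymphocytes (4 of 17). The mural value was not firm, at 19.1 without replicate 4 and 25.1 when a value in 2 samples was enough. Without the 11 print blocks of low agreement the mural value was 57.6 and the endothelial value 11.4. Of the endothelial markers, Pecam1, Cdh5, Cldn5 and Tek had a value in 1 sample each, while Slco1a4, an organic anion transporter of brain endothelium, read 6.20, 5.11 and 5.69. Cnn1, the calponin of smooth muscle, read 4.06, 5.07 and 4.23 (percentile 93.0). The mural marker Acta2 read 6.60 and 7.97 in replicates 3 and 4 and had no value in replicate 6, so it was not ranked.

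**Figure D3:**
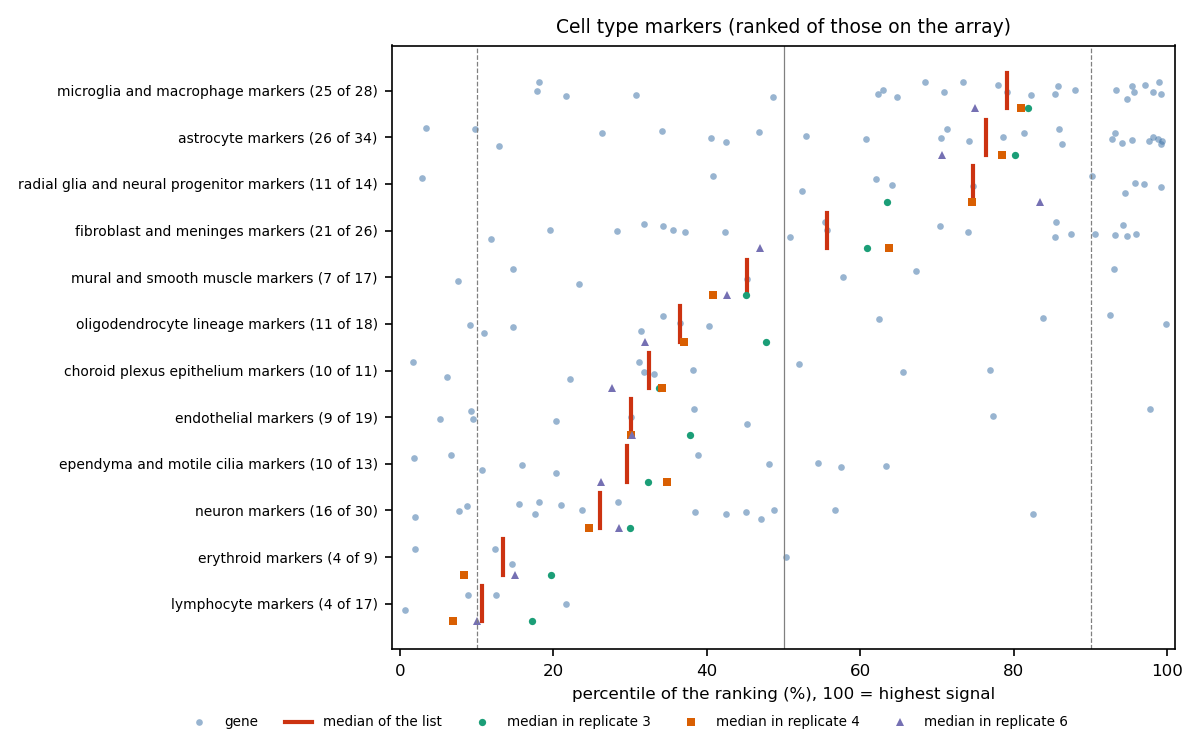
Percentile of each ranked marker (blue points) for 12 cell type lists, with the list median (red bar) and the list median in each sample (green circle, replicate 3; orange square, replicate 4; purple triangle, replicate 6). Numbers after each name are ranked markers of those on the array; microglia (79.1), astrocyte (76.4) and radial glia (74.6) lists have the highest medians and lymphocyte markers (10.7) the lowest.

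Genes that pattern brain regions were mostly low, and a few were bright. Of 12 forebrain genes, 11 were ranked with a median percentile of 31.2. Lhx2, which specifies the cortex, read 5.77, 5.94 and 5.42, and Otx1, a homeobox gene of forebrain and midbrain, read 4.27, 3.89 and 5.35, while Zic1 and Six3 lay at percentiles 8.5 and 13.3. Of 22 midbrain and hindbrain genes, 8 were ranked with a median percentile of 21.4, and 7 of the 8 lay below the median. The exception was Hoxb4, a homeobox gene of the hindbrain and spinal cord, at 6.20, 6.15 and 4.40 through 1 probe. The other ranked Hox genes named by the rule, Hoxa4, Hoxa3 and Hoxb1, lay at percentiles 22.7, 8.3 and 1.6.

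Some of the brightest genes are absent from the ranking because replicate 6 has no value for them. The deposited ratios could be turned back into whole-number signals within 0.0001 for every value in all 48 blocks of the 3 samples. The highest signals were 22209 in replicate 3, 58571 in replicate 4 and 65473 in replicate 6, and a 16-bit scanner ends at 65535. Of probes with no value in 1 sample but values in both others, 244 were missing in replicate 3, 1565 in replicate 4 and 1202 in replicate 6. Most were dim. Probes with a mean over 4 in both others numbered 0, 1 and 65. The reason for a missing value is not given in the table. The 65 bright probes missing in replicate 6 took 32 genes out of the ranking.

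Several well-known transcripts of astrocytes and macrophages are among those left out. Tpt1, the translationally controlled tumour protein, read 7.89 in replicate 3 and 8.64 in replicate 4. Ftl1 and Fth1, the ferritin chains, read 6.97 and 8.66, and 5.69 and 7.97. Apoe, the main lipid carrier secreted by astrocytes, read 5.64 and 7.63, and Cst3, the secreted protease inhibitor cystatin C, read 6.03 and 7.57. Vim, the intermediate filament vimentin, read 5.16 and 7.49 through its 1 probe. Ckb, the brain creatine kinase, read 6.20 and 8.25. Acta2, the smooth muscle actin also found in activated glia and fibroblasts, read 6.60 and 7.97, and Lyz2, the lysozyme of macrophages, read 6.84 and 7.61. When a value in at least 2 samples was enough, 10614 genes were ranked, and Tpt1, Ftl1, Atp5g3 and Rplp1 took the first 4 places ahead of B2m. The means of these 4 come from replicates 3 and 4 only, whereas that of B2m includes replicate 6. In replicates 3 and 4 Rplp1 read 7.05 and 7.88, below B2m at 7.12 and 7.90.

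**Figure D4:**
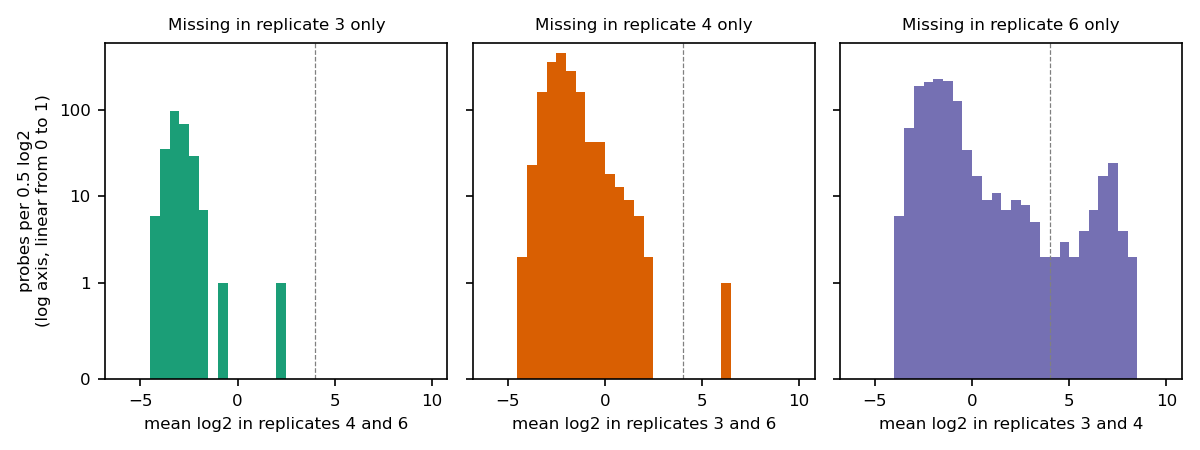
Number of probes per 0.5 log2 units (log axis, linear from 0 to 1) that have no value in 1 sample, against their mean log2 value in both other samples, with a dashed line at 4. Probes missing in replicates 3 and 4 lie below 4 apart from 1. Those missing in replicate 6 have a dim peak and a bright peak with few probes in between, and 65 of them lie above 4.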

How the data were processed

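Per the labels, RNA of cultured astrocytes was hybridised to spotted mouse oligonucleotide arrays, and each sample is 1 dye channel. The deposited table gives 1 log2 value per probe and sample. The authors' scanner, background correction and rule for missing values are not stated in the sources. Tests on the values showed each to be the log2 of a whole-number signal over the median of the measured spots in its block of 700 probes. Probe symbols came from the platform annotation: of 33600 probes, 18179 had 1 symbol, 87 several and 15334 none here, and a RefSeq gene table changed 0 symbols. The table's 11 other columns were not used.

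Values were centred on block medians and averaged per gene and over the 3 samples with Python 3.11.15, numpy 2.4.6 and pandas 2.3.3. The ranking code was run on simulated data with the same random noise for every gene. That simulation held no missing values, probe disagreement or block effects, so it checked the code and not the ranking. There is no group comparison, and no test was run. Samples had 26563, 20757 and 21599 values (replicates 3, 4 and 6), and precision is limited by having only 3 of them. The members, the 34 gene lists and the rule for named genes were chosen with earlier results of these data known. The rule for named genes took the 20 highest, 10 lowest and 10 nearest the median, with clone names left out. It also took the 3 highest and 2 lowest of each list and the first 4 markers of each cell type. Gja1, Gfap, Vim, Actb, Gapdh and the 5 genes with probes furthest apart were included too. Not every gene of the rule is printed. Other markers and the genes missing in replicate 6 were chosen after their values were seen. Alternatives covered replicates left out, probe rules, scaling, missing values and print blocks.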

Additional observations from a re-analysis of the deposited data

How the results depend on the processing

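No paired analysis was possible because the ranking compares no groups and comes from no test. Of 374 list medians recomputed under 11 alternatives, 1 crossed percentile 50: mural markers went from 45.2 to 57.6 without the 11 print blocks where replicate 6 correlated under 0.9 with the mean of the others, an alternative chosen after seeing the data, as was the recovered signal relative to the column median. Without those blocks the median percentile was 57.6 for the 18 astrocyte markers left, 84.7 for microglia, 30.0 for neurons and 98.5 for ribosomal proteins. With the brightest probe per gene it was 99.2 for ribosomal proteins and 30.8 for neurons, and with the recovered signal 29.2 for neurons. Leaving out 1 replicate gave 74.1 to 81.6 for astrocytes, 76.4 to 83.6 for microglia, 24.9 to 29.3 for neurons and 98.6 to 98.9 for ribosomal proteins. The highest astrocyte and microglia medians came without replicate 6 and the highest neuron median without replicate 4. The medians of small lists moved by more than 1.5 times in places: pancreas and gut enzymes (7.37) to 4.46 without those blocks, keratins (9.82) to 20.1 and liver genes (22.7) to 13.2 with 2 samples enough. The number of ranked genes ran from 7838 to 10614. The share of the top decile kept under an alternative ran from 79.5% to 100%. Genes that left the ranking count as not kept. The 79.5% came without those blocks, where 7838 of 9556 genes were ranked. With 1-probe genes only, 7981 genes were ranked and the share was 83.5%. The cause of these shifts was not tested.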

Other observations

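The agreement of replicate 6 with the mean of replicates 3 and 4 varied by place. By print block the correlation ran from 0.812 to 0.963 with a median of 0.932, and 11 of 48 blocks were under 0.9. Replicates 3 and 4 were not compared with each other by block, so a low value cannot be assigned to 1 sample. In block 42, the lowest, the median recovered signal was 58.5, 95 and 444.5 in replicates 3, 4 and 6. The middle value over blocks was 139.5, 165 and 454.25. On 64 of 19129 probes replicate 6 lay more than 4 log2 units away, 30 higher and 34 lower. Of the 64, 40 (62.5%) were in the 11 blocks under 0.9, which hold 20.9% of the probes. By place within each run of 28 consecutive probes, the correlation was 0.841 at the last place and 0.894 to 0.940 at the other places, and 15 of the 64 probes were at the last place. Replicates 3 and 4 correlated at 0.927 with each other there. The gene with the widest spread of all, Pparg, a nuclear receptor of lipid metabolism, sits at such a last place and read 6.40, 7.87 and -0.83. Ppard, a relative of it, read 4.71, 4.57 and -2.22, and Rrp1, a ribosome assembly factor, read -0.51, -1.91 and 5.10, both also at a last place. Prdx1, a peroxiredoxin, read 1.07, -0.72 and 7.25 at another place in 1 of the 11 blocks. In all, 90 ranked genes had an SD over 2.

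Replicate 3, the Cy3 sample, had values for 79.1% of probes, against 61.8% and 64.3% for replicates 4 and 6. Its block medians of the recovered signal ran from 58.5 to 299, and they fell as the number of values in a block rose (r = -0.80 over 48 blocks of 1 sample). In replicates 4 and 6 the block medians ran from 83.5 to 290 and from 303 to 795. The lowest signals in a block were 17 to 27, 15 to 17 and 20 to 24 in replicates 3, 4 and 6. The dye and the sample cannot be told apart with these 3 samples.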
